A study of Mus musculus with 2 samples.

Results

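MicroRNA genes of imprinted loci other than the Dlk1-Dio3 domain were examined in C2C12 myocytes. C2C12 is a line of mouse myoblasts from crushed thigh muscle of the C3H strain, which forms contractile muscle cells when growth factors are withdrawn. The genes were chosen by name and locus, with no threshold on their values, but at a time when earlier results of these data were known. They were Mir335, in the gene Mest, Mir675, in the gene H19, Mir483, in the gene Igf2, and Mir296 and Mir298, at the Gnas locus. All 5 were found once each among the 2202 microRNA genes of the count tables. The series held 1 group of 2 libraries, biological replicates 1 and 2, each from C2C12 cells differentiated for 72 h, with no transgene, agent or second genotype named in the labels. The labels do not say whether the replicates came from separately differentiated cultures, so the spread between them can be technical in part. No condition was compared, and undifferentiated C2C12 cells were not analysed here.

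In genomic imprinting, 1 parental copy of a gene is silenced by marks set in the germ line, and the imprinted genes lie in clusters under shared control regions. Mest, which encodes a hydrolase-like protein, and Igf2, which encodes a fetal growth factor, are transcribed from the paternal copy in the mouse, whereas the long noncoding RNA H19 is transcribed from the maternal copy. At the Gnas locus, which encodes the alpha subunit of a stimulatory G protein, Nespas is an antisense transcript of the paternal copy. Igf2 and H19 are both known in skeletal muscle cells: IGF2 is an autocrine signal for differentiation of mouse myoblasts, and H19 RNA increases as they differentiate. The counts do not separate parental copies and hold no messenger RNA, so neither imprinting nor host gene levels were measured.

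Mir335 (ENSMUSG00000065501.1) spans bases 30741299 to 30741396 of chromosome 6 (mm10, plus strand), in an intron of each of the 7 annotated Mest transcripts that span it. Mir675 (ENSMUSG00000076275.1) lies on the minus strand of chromosome 7 from 142577064 to 142577147 and overlaps an exon in 3 of the 4 H19 transcripts that span it. Mir483 (ENSMUSG00000070140.1), on the same strand from 142654924 to 142654996, lies in an intron of all 7 Igf2 transcripts that span it, and 77.8 kb separate it from Mir675. Mir298 (ENSMUSG00000065410.1) and Mir296 (ENSMUSG00000065521.1) lie on the minus strand of chromosome 2, from 174267504 to 174267585 and from 174267047 to 174267125, with 378 bases between them. No other gene of the GENCODE M21 annotation overlaps either hairpin. The annotated end of Nespas, which is transcribed on the same strand toward them, lies 13.7 kb from Mir298 and 14.1 kb from Mir296.

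**Figure D1:**
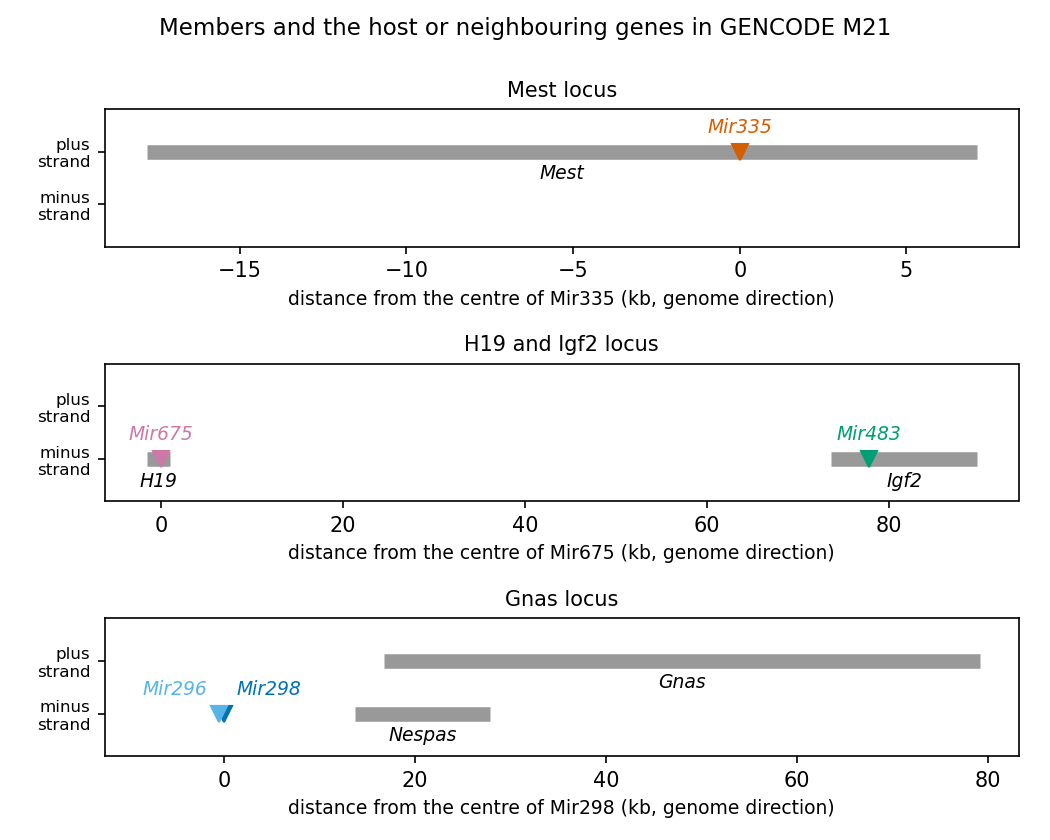
Position of each hairpin (triangles) and of the host or neighbouring genes (grey bars) on the plus and minus strands, as the distance in kb from the centre of Mir335, Mir675 or Mir298. Mir335, Mir675 and Mir483 lie inside Mest, H19 and Igf2 on the host's strand, whereas Mir298 and Mir296 lie 13.7 and 14.1 kb beyond the annotated end of Nespas.

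The hairpins (RefSeq, GRCm38.p6, the assembly behind mm10) are shown to place both mature products of each gene, which the counts do not tell apart. Sequences run 5′ to 3′ on the gene's strand, with the mature 5p and 3p products in capitals.
Mir335: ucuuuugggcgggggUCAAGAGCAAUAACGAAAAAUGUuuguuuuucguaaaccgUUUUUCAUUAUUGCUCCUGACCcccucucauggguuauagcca
Mir298: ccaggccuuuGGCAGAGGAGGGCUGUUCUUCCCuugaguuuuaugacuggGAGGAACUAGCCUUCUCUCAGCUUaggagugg
Mir296: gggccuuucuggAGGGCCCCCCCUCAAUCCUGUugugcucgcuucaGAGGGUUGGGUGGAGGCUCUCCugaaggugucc
Mir483: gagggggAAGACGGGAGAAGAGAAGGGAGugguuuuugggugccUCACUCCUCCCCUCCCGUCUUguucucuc
Mir675: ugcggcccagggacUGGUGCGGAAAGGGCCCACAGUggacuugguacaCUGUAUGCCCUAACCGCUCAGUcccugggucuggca

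A microRNA finds its targets mainly through its seed, bases 2 to 8 of the mature product, so the mature products are given with the seed in capitals to show whether any of the genes share one.
mmu-miR-335-5p: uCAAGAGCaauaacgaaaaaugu
mmu-miR-335-3p: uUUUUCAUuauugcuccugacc
mmu-miR-298-5p: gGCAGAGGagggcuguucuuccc
mmu-miR-298-3p: gAGGAACUagccuucucucagcuu
mmu-miR-296-5p: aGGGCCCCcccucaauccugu
mmu-miR-296-3p: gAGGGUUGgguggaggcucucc
mmu-miR-483-5p: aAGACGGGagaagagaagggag
mmu-miR-483-3p: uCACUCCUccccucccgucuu
mmu-miR-675-5p: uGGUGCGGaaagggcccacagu
mmu-miR-675-3p: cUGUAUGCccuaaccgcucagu

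The 10 mature products had 10 different seeds, and none of these seeds occurred in a mature product of any other mouse gene in the RefSeq table. Across that table, 68.0% of 1738 mature products had a seed found in 1 gene alone, and 57.0% of 1058 genes had such seeds in every listed product. The neighbours Mir298 and Mir296 therefore shared no seed with each other, and neither did Mir483 and Mir675. Base composition differed widely among the products. The G and C content was lowest in miR-335-5p (30.4%) and miR-335-3p (36.4%) and highest in miR-296-3p (68.2%). Purines made up 95.5% of miR-483-5p and 9.52% of miR-483-3p, the opposite arm of the same hairpin.

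Replicate 1 had 7581366 sense-strand counts in microRNA genes and replicate 2 had 9865298, or 49.4% and 53.5% of all reads. Mir206, a microRNA restricted to skeletal muscle, took 34.1% and 41.7% of these counts. Of 12 measured muscle-enriched microRNA genes, 9 reached the minimum for detection of 10 counts per library, and Mir133c was at 0. The muscle-enriched genes together took 35.5% and 42.8% of the counts, so most of their assigned counts were those of Mir206. Among the microRNAs of other cell types, 0 of 6 neural genes were detected (0 counts in replicate 1 and 1 in replicate 2). Mir9-1, Mir9-2 and all Mir124a genes were at 0. Multi-mapped reads were not assigned to genes, so low counts of microRNAs with several gene copies are uncertain. These include Mir124a and Mir9 of the neural list and Mir1a and Mir133a of the muscle list, and absence cannot be read from them. Neither Mir133a-1 nor Mir133a-2 was among the detected genes, so the share of Mir206 among muscle microRNAs is uncertain too. Of 6 epithelial genes 1 was detected (66 and 54 counts, with Mir200a and Mir429 at 0), and of 6 blood cell genes 3 were detected (5728 and 4485 counts). The level of Mir122, a liver microRNA, was 8 counts in replicate 1 and 4 in replicate 2.

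All 5 imprinted-locus genes were detected. Over all 2202 measured genes 314 (14.3%) were, a background from which nothing is read, since the 5 were chosen with earlier results known. Together they took 1.19% of the assigned counts in replicate 1 (90212 counts; 95% Clopper-Pearson interval 1.18 to 1.20) and 0.573% in replicate 2 (56501 counts; 0.568 to 0.577), a mean of 0.881% ± 0.436 (SD, n = 2). Intervals cover counting error only. They take reads as independent, and reads without molecular identifiers are not independent molecules, so the intervals can be too narrow. Mir335 held 59.8% of the group's counts in replicate 1 and 37.7% in replicate 2. Without Mir335, the other 4 genes took 0.478% of the assigned counts in replicate 1 and 0.357% in replicate 2. The median of the 5 mean levels was 1432 CPM (counts per 1000000 sense-strand counts assigned in that library), beside a median of 53.1 CPM over all detected genes.

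Mir335 was the most abundant of the 5. Its mature product has been described as a suppressor of metastasis in human breast cancer cells. It had 7115 CPM in replicate 1 (53942 counts) and 2157 CPM in replicate 2 (21280 counts), a mean of 4636 ± 3506 CPM (SD, n = 2). These levels gave it rank 22 of 2202 in replicate 1 and rank 33 in replicate 2.

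Mir298 and Mir296, the Gnas locus pair, came next by mean level. In the mouse, miR-298 has been shown to repress Bace1, the gene of an amyloid-processing protease. Mir298 had 2519 CPM in replicate 1 (19099 counts) and 1085 CPM in replicate 2 (10706 counts), a mean of 1802 ± 1014 CPM. miR-296 has been described in mouse embryonic stem cells as a repressor of the pluripotency factor Nanog. Mir296 had 1304 CPM in replicate 1 (9883 counts) and 1560 CPM in replicate 2 (15394 counts), a mean of 1432 ± 182 CPM.

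Mir483 and Mir675, of the joint Igf2 and H19 domain, were the lowest. Mir483 had 623 CPM in replicate 1 (4720 counts) and 691 CPM in replicate 2 (6812 counts), a mean of 657 ± 48.0 CPM. miR-675 is the microRNA product of H19, and in mouse myoblasts its mature forms have been reported to promote differentiation by repressing Smad1, Smad5 and the replication factor Cdc6. Mir675 had 339 CPM in replicate 1 (2568 counts) and 234 CPM in replicate 2 (2309 counts), a mean of 286 ± 74.0 CPM. The mean CPM of Mir206 was 81.7 times that of Mir335 and 1323 times that of Mir675.

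**Figure D2:**
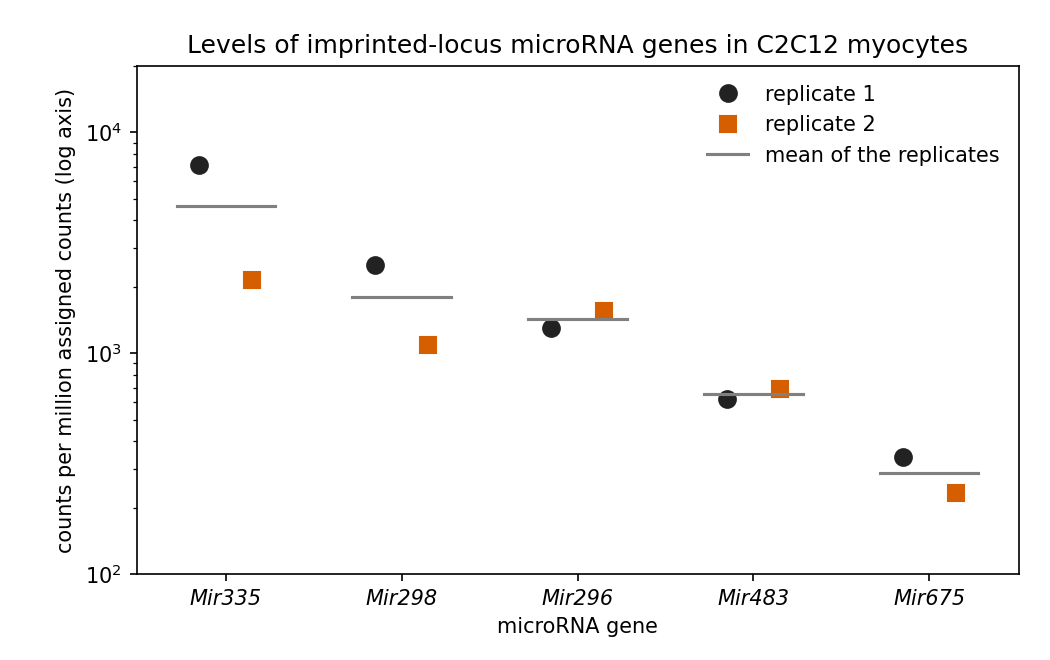
Level of each gene in CPM (log axis) in replicate 1 (circles) and replicate 2 (squares), with the mean as a grey line. Mir335 spans 2157 to 7115 CPM and Mir298 spans 1085 to 2519 CPM, while Mir483 stays between 623 and 691 CPM.

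The order of the mean levels in CPM was Mir335, Mir298, Mir296, Mir483 and Mir675. Each read was taken to come from 1 small RNA, whatever the hairpin length, so counts were not divided by hairpin length. How readily different microRNAs entered the libraries was not tested. The ranges of Mir335 and Mir298 over the replicates overlapped, as did those of Mir298 and Mir296, so these neighbours in the order did not differ beyond their spread. Within each library Mir335 was above Mir298, 2.82-fold in replicate 1 and 1.99-fold in replicate 2. Mir296 stood above Mir483 without overlap, 2.09-fold in replicate 1 and 2.26-fold in replicate 2. Mir483 stood above Mir675 without overlap, 1.84-fold in replicate 1 and 2.95-fold in replicate 2.

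By mean CPM over all 2202 genes, the ranks were 25 for Mir335, 42 for Mir298, 51 for Mir296, 76 for Mir483 and 103 for Mir675. None of the 5 therefore stood lower than rank 103, among 314 detected genes. The largest change of rank between the replicates was that of Mir298, with rank 36 in replicate 1 and rank 60 in replicate 2. Mir483 had rank 84 in replicate 1 and 67 in replicate 2, Mir296 had 54 and 44, and Mir675 had 98 and 105.

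**Figure D3:**
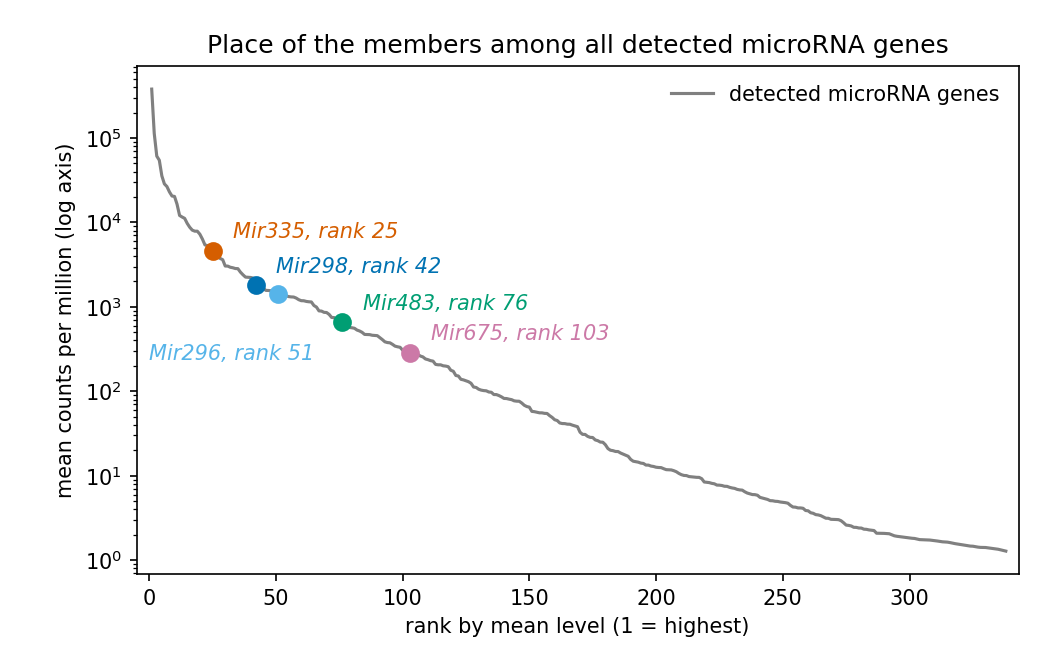
Mean CPM (log axis) of detected microRNA genes against their rank by mean level among all measured genes, with the imprinted-locus genes marked. They span ranks 25 (Mir335) to 103 (Mir675), and Mir298 and Mir296 lie close together at ranks 42 and 51.

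The counts of the genes were compared between the libraries with the exact binomial test, two-sided and conditional on library totals. P-values were adjusted over all 314 detected genes (Benjamini-Hochberg, threshold 0.05). The test compares these libraries, takes reads as independent and covers counting error only. It called 5 of 5 genes, 3 higher in replicate 1 and 2 higher in replicate 2, but it also called 66.6% of all detected genes (38.2% higher in replicate 1 and 28.3% higher in replicate 2). With most genes called and only 5 members, nothing about the members was read from these calls. Replicates more than 2-fold apart, on the scale of log2(CPM + 1), were found for 18.2% of detected genes, and among the 5 for Mir335 and Mir298.

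Mir335 was 3.30-fold higher in replicate 1 than in replicate 2 (log2 ratio 1.72, adjusted p below the smallest number that the arithmetic can hold and written as 0), the 24th widest separation of the 314 detected genes. Mir298 was 2.32-fold higher in replicate 1 (log2 ratio 1.21), at place 39 of 314, with an adjusted p that was likewise written as 0. Mir675 was 1.45-fold higher in replicate 1 (log2 ratio 0.53, adjusted p = 1.55e-37 in the exact binomial test). The other two genes went the opposite way. Mir296 was 1.20-fold higher in replicate 2 (log2 ratio of replicate 1 over replicate 2 −0.26, adjusted p = 3.23e-44 in the exact binomial test). Mir483 was 1.11-fold higher in replicate 2 (−0.15, adjusted p = 9.23e-08 in the exact binomial test). The absolute log2 ratios of Mir296 and Mir483 were below the median of 0.45 over all detected genes, and that of Mir675 was above it.

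The replicate ratio leaned with base composition across the whole table: over the 314 detected genes, Spearman's rho between hairpin G and C content and the log2 ratio of replicate 1 over replicate 2 was −0.28. This is a correlation across genes of the same libraries, which are not independent replicates. Mir335 had the lowest G and C content of the 5 hairpins (42.9%, beside a median of 51.5%), followed by Mir298 (53.7%), Mir483 (58.9%), Mir675 (63.1%) and Mir296 (63.3%). After a linear trend on that content was removed, the log2 ratio was 1.51 for Mir335 and 1.25 for Mir298. It was 0.79 for Mir675, and it lay at 0.0025 for Mir296 and 0.011 for Mir483. On this scaling the small lean of these last genes toward replicate 2 thus did not remain. The median log2 ratio over all detected genes was 0.086 before the removal, and the trend was not removed under other scalings.

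**Figure D4:**
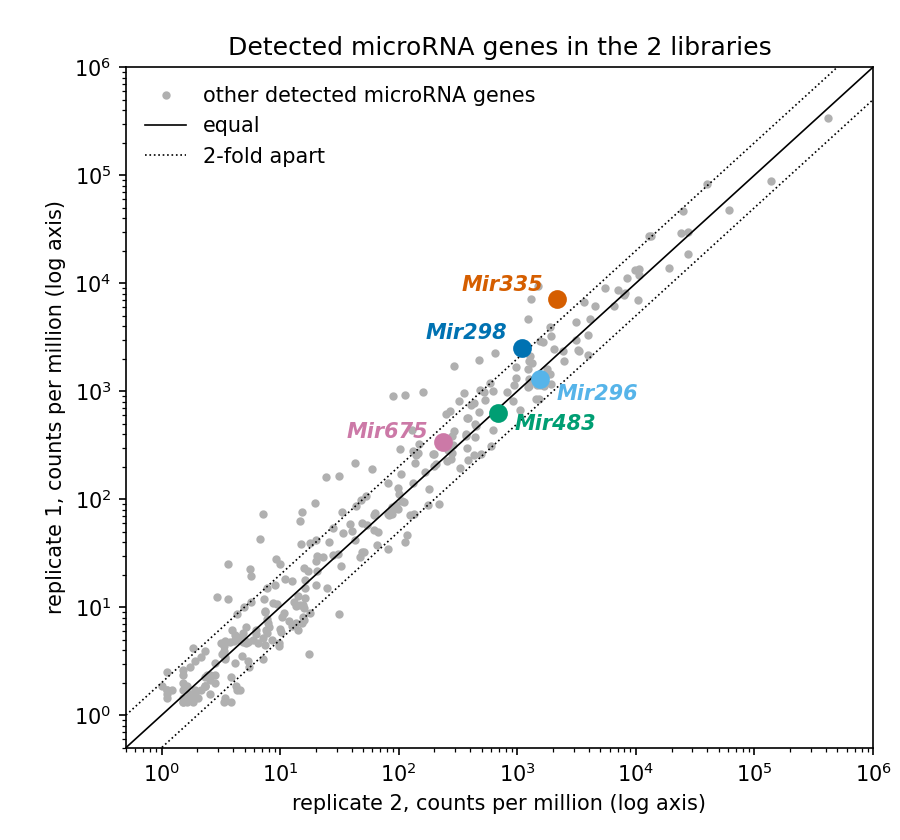
CPM in replicate 1 (vertical) against replicate 2 (horizontal) on log axes for the 314 detected microRNA genes, with the imprinted-locus genes coloured, the line of equal levels and dotted lines for 2-fold differences. Mir335 and Mir298 lie above the upper 2-fold line and Mir296, Mir483 and Mir675 lie inside the lines.

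Counts within 1 library can be set against each other with no scaling, which allowed the neighbouring genes to be compared directly. This does not remove the lean of the replicate ratio with base composition. Mir298 and Mir296 lie 378 bases apart on 1 strand, yet their split was not the same in the 2 libraries. Mir298 held 65.9% of the pair's 28982 counts in replicate 1 (95% Clopper-Pearson interval 65.4 to 66.4) and 41.0% of 26100 counts in replicate 2 (40.4 to 41.6). The count of Mir298 was thus 1.93 times that of Mir296 in replicate 1, while that of Mir296 was 1.44 times that of Mir298 in replicate 2. The ratio moved 2.78-fold between the libraries, and the gene with more counts changed. The hairpins differ in G and C content, 53.7% for Mir298 and 63.3% for Mir296. With the linear trend on that content removed, their log2 ratios of replicate 1 over replicate 2 still stood apart, at 1.25 and 0.0025. The summed level of the pair was 3823 CPM in replicate 1 and 2646 CPM in replicate 2.

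In the Igf2 and H19 domain, Mir483 had more counts than Mir675 in both libraries. It held 64.8% of the pair's 7288 counts in replicate 1 (95% Clopper-Pearson interval 63.7 to 65.9) and 74.7% of 9121 counts in replicate 2 (73.8 to 75.6), and the ratio moved 1.61-fold. The summed level of this pair was close in the libraries, with 961 CPM in replicate 1 and 925 CPM in replicate 2. With 2 libraries, the movement of either ratio could not be set against a spread between further replicates.

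**Figure D5:**
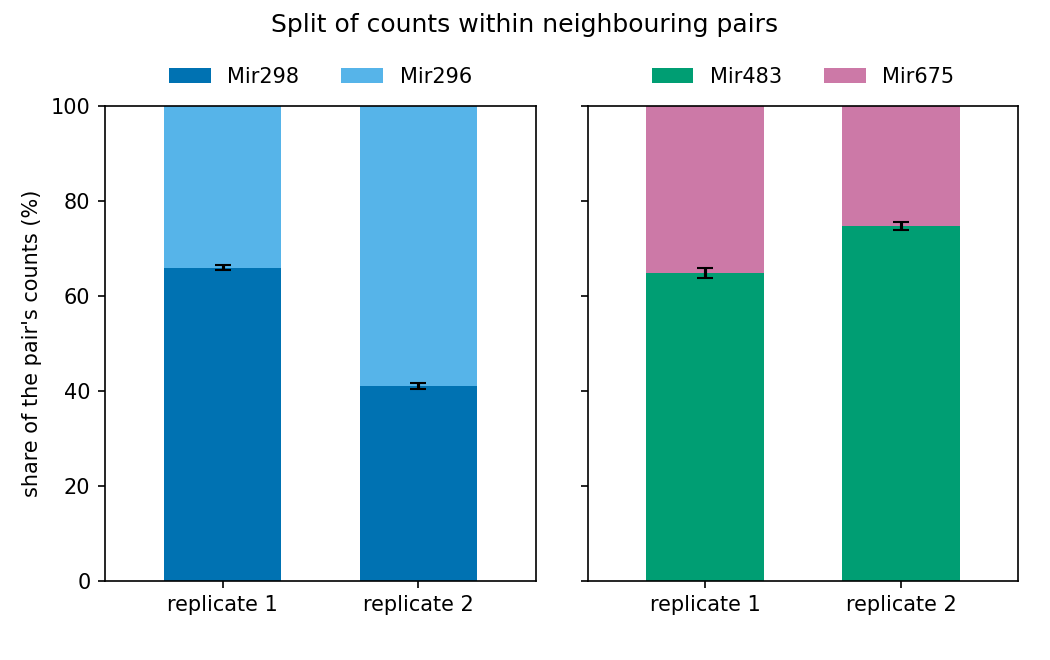
Share of each pair's counts (%) held by Mir298 and Mir296 (left) and by Mir483 and Mir675 (right) in replicates 1 and 2, with 95% Clopper-Pearson intervals for the lower segment. The share of Mir298 is 65.9% in replicate 1 and 41.0% in replicate 2, and that of Mir483 is 64.8% and 74.7%.

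None of the 5 hairpins shares 20 bases with another annotated microRNA hairpin, so no such copy among these hairpins was found to divide their counts. Shorter or inexact matches, and matches elsewhere in the genome, were not checked. On the strand opposite each of the 5 genes, 0 counts were found in both libraries. A count of 0 is compatible with as many as 3 counts, equal to 0.396 CPM in the library of replicate 1 and 0.304 CPM in that of replicate 2. The count columns for either strand and for the sense strand were identical for these genes.

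Few other microRNA genes lie near the members. Within 500 kb of Mir335, 2 other genes were measured and both were detected. Mir29a, 321 kb away and on the other strand, had 6134 CPM in replicate 1 and 4489 CPM in replicate 2, and its neighbour Mir29b-1 had 6.20 and 6.28 CPM. Thus Mir335 was above Mir29a in replicate 1 and below it in replicate 2. Multi-mapped reads were not assigned, so the level of Mir29b-1, which has the gene copy Mir29b-2, is uncertain. Near Mir298 and Mir296, the predicted gene Gm27591, 19.6 kb from Mir298, had 0 counts in both libraries. Its hairpin shares sequence with Mir466f-1, so this count is uncertain as well. No microRNA gene other than the members was measured within 500 kb of Mir483 or Mir675.

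Genes whose levels came closest to each member, by Euclidean distance in log2(CPM + 1) over the 2 libraries, were taken as those of the most like pattern, which over 2 libraries describes level and replicate ratio alone. For Mir335 these were Mir31 (9340 and 1498 CPM, distance 0.66), Mir34c (7130 and 1298 CPM, distance 0.73) and Mir17 (6624 and 3652 CPM, distance 0.77), each higher in replicate 1 as well. For Mir298 they were Mir106b, Mir30b and Mir28a, at distances of 0.36 to 0.56 (Mir28a shares sequence with Mir28c, so its count is uncertain). Mir296 was closest to Mir181c, Mir615 and Mir500, at distances of 0.18 to 0.19. The genes closest to Mir483 were Mir186, Mir183 and Mir350 (0.52 to 0.55), and those closest to Mir675 were Mir497, Mir25 and Mir125b-2 (0.12 to 0.32; the count of Mir125b-2, which shares sequence with Mir125b-1, is uncertain). None of these 15 genes lies on the chromosome of its member.

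MicroRNA genes of other imprinted hosts were mostly without counts. A list of 53 imprinted mouse genes, all found in the annotation, was used. Inside 8 of these hosts, on either strand, lay 151 other measured microRNA genes. Of these, 7 were detected (4.64%, beside 14.3% of all measured genes). In 130 of the 151 both libraries had 0 counts. These totals were mostly those of 1 multi-copy cluster: Sfmbt2 held 119 of the 151 genes, and 116 of the 119 share at least 20 bases with another hairpin. Multi-mapped reads were not assigned to genes, so the low numbers of the Sfmbt2 genes, 6 detected and 104 without a count, are uncertain. In the other 7 hosts, where 2 of 32 genes share sequence in this way, 1 gene was detected and 26 had no count. The median was 0 CPM for the list and for all measured genes alike. The 28 genes within Meg3, Rtl1, Rian and Mirg, of the Dlk1-Dio3 domain, included 0 detected genes and had 6 counts in replicate 1 and 1 in replicate 2. Among them Mir127, Mir136, Mir431, Mir432, Mir433 and Mir434 lie on the strand opposite Rtl1, and Gm24321 lies opposite Mirg. Outside that domain, Gm23134 lies opposite Nnat. These genes are placed by position and are not part of the named gene's transcript.

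Of the 7 detected genes, 6 lay in Sfmbt2, a gene that in the mouse is expressed from the paternal copy and hosts a large microRNA cluster. Its most abundant genes were Mir467d (165 CPM in replicate 1 and 31.1 CPM in replicate 2), Mir467c (91.5 and 19.7 CPM) and Mir467e (76.8 and 15.4 CPM). These hairpins share sequence with one another and with many copies, so their counts are uncertain. The remaining gene, Mir3099 in Usp29 of the imprinted Peg3 domain, had 10.8 CPM in replicate 1 and 8.62 CPM in replicate 2. Each of these means was below that of Mir675, the lowest of the 5 members.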

How the data were processed

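Per the labels, microRNA sequencing libraries were made from total RNA of C2C12 cells differentiated for 72 h, and adapters were trimmed. The authors deposited whole-number read counts per microRNA gene, not normalized. Per the deposited notes, reads were counted on build mm10 with GENCODE M21. The aligner and the counting program were not given in the sources used here. Unmapped, multi-mapped and unassigned entries were left out of library totals: 22.0% of reads were multi-mapped in replicate 1 and 17.9% in replicate 2. Sense-strand counts were used, and CPM were computed over assigned counts.

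Detection required 10 counts in each library, and log2 ratios used a pseudocount of 1 CPM. All 2202 identifiers matched the annotation. Tests used scipy 1.17.1, and scaling factors for alternatives came from edgeR 4.0.16 (TMM) and DESeq2 1.42.0. The binomial test was tested on simulated data that held counting error only, so its behaviour under wider spread between replicates was not tested. Mature and hairpin sequences are RefSeq's (5 of 5 genes matched). The members, lists and tests were chosen with earlier results of these data known. Named besides the members were the 3 nearest genes in level of each, detected neighbours and, from other imprinted hosts, the 4 most abundant genes. Gm27591 was named after its values were seen.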

Additional observations from a re-analysis of the deposited data

How the results depend on the processing

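The number of detected genes stayed at 5 of 5 with minimums of 1 and 100 counts, in the either-strand counts and in either library alone. Over all 2202 measured genes, 555 passed the minimum of 1 count and 187 that of 100 counts. Nothing about the members was read from their detection. The number called by the exact binomial test stayed at 5 of 5 under either-strand counts, all reads or assigned counts without Mir206 as denominator, TMM factors, DESeq2 size factors and both other minimums. In the main setting 66.6% of all detected genes were called, and the share under each alternative is not given here. Nothing about the members was read from these calls. The summed share was 0.997% in the either-strand counts, 0.447% of all reads and 1.39% of the assigned counts without Mir206. With 1 replicate left out it ranged from 0.573% to 1.19%. Taking all reads or leaving out Mir206 moved the median log2 ratio of all detected genes by −0.11 and −0.17, and neither turned the direction of any member. Over the alternatives, the log2 ratio of replicate 1 over replicate 2 ranged from 1.51 to 1.72 for Mir335, 1.04 to 1.25 for Mir298 and 0.36 to 0.79 for Mir675. Those of Mir296 and Mir483 were negative throughout, down to −0.44 and −0.33, except with the trend on hairpin G and C content removed, an alternative added after seeing the data, which gave 0.0025 and 0.011. The cause was not tested. With 2 libraries of 1 group, no spread within a condition beyond a single difference could be measured. No paired analysis was possible because the series has 1 group.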
